A study of Rattus norvegicus with 20 samples.

Results

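The genes of glycolysis, of pyruvate entry into the mitochondrion and of the citric acid cycle were followed through a *Piezo* silencing experiment in INS-1 832/13 cells, an insulin-secreting line derived from a rat insulinoma that carries the human proinsulin gene. The members were 40 genes listed by name. Of these, 39 had a row among the 23487 genes of the table, and all 39 were among the 15802 genes that were tested. The expression of *Idh3b* was not analysed here, but its promoter enters the motif counts below. Cells received siRNA against both *Piezo1* and *Piezo2* (si-P1+2), against *Piezo1* (si-P1), against *Piezo2* (si-P2) or a negative control siRNA (si-Ctrl), or were left without siRNA (Untransfected), with 4 libraries in each group. The siRNA, 1 pool of oligonucleotides per gene at 25 nM, was given again after 48 h, and cells were kept for another 48 h at 11.1 mM glucose. An effect of a pool cannot be told apart from an effect of losing its target. Whether the 4 libraries of a group are separate cultures is stated in no source, and the p values therefore rest on the variation among these libraries, which can be technical.

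In the pancreatic β cell, glucose is phosphorylated and split by glycolysis into pyruvate, nearly all of which goes to the mitochondrion. There the pyruvate dehydrogenase complex turns it into acetyl-CoA and pyruvate carboxylase turns it into oxaloacetate, and citrate synthase joins both products into citrate, which the citric acid cycle oxidizes. The ATP made from this oxidation closes potassium channels and triggers insulin secretion, and carbon that leaves the cycle as malate can return to pyruvate.

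*Cs*, *Pfkl* and *Pkm* were the members that passed the test between si-P1 and si-Ctrl cells, and the 150 bases before their start sites are printed because their mRNA levels were lower in the same comparison. The windows come from RefSeq promoters of GRCr8, which is not the build behind the counts, and all lie on the plus strand: chr7:1348239-1348388 for *Cs*, chr20:10663815-10663964 for *Pfkl* and chr8:68953485-68953634 for *Pkm*. Capitals mark GGGCGG on either strand, the core of a GC box.
Cs: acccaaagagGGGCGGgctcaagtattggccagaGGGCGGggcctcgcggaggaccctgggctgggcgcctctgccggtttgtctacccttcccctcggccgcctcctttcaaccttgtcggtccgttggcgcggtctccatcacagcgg
Pfkl: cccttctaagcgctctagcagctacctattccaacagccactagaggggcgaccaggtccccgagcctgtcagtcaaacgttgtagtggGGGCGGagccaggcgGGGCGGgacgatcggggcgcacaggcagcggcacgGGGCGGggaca
Pkm: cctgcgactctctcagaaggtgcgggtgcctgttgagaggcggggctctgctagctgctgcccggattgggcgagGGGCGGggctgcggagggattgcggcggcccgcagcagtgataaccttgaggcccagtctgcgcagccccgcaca
RefSeq had a promoter for 37 of the 40 listed genes, and a single one for 35. In total 10 motifs were searched in the 250 bases before the start, on both strands, and GGGCGG was chosen for the capitals after its matches had been seen. GGGCGG was in 24 of the 35 members and in 30.5% of 33469 promoters. CCAAT was in 16 members and 34% of promoters, ACGTG in 11 and 16.6%, CCGGAAG in 5 and 7.27%, and TATAAA in 2 and 12.9%. CACGTG, each match of which also holds ACGTG, was in 3 members and 5.59% of promoters. The 8-base motifs of CREB and YY1 were in 2 and 1 members, against 1.59% and 1.63% of promoters. The NRF-1 motif was in 1 member and 0.762% of promoters, or in 2 members and 3.75% with a free middle base. Most members carry GGGCGG whether or not they passed a test, and a match describes these letters only.

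Values are normalized counts, that is estimated reads per gene divided by a size factor per library. They are not divided by gene length, so levels are compared between groups and not between genes. The libraries held 16679934 to 56926609 reads. *Piezo1* was at 112 to 145 normalized counts in si-P1+2 and 105 to 132 in si-P1 libraries, against 300.0 to 386 in si-P2, 294 to 333 in si-Ctrl and 271 to 336 in Untransfected libraries. *Piezo2* was at 3.71 to 16.3 across the 20 libraries, too low to check its silencing. The 13 β-cell markers were present in every library. Of 18 markers of other cell types, *Gcg* (1232 to 3336) and *Sox9* (245 to 525) were present and the other 16 stayed below 21 normalized counts. The summed level of these 18 markers overlapped between all groups (1789 to 3149 in si-P1+2, 1831 to 2799 in si-P1, 1732 to 3487 in si-P2, 1778 to 3719 in si-Ctrl and 1598 to 2777 in Untransfected libraries).

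One library stood apart. Replicate 3 of si-Ctrl had a median correlation with its own group of 0.973, against 0.985 to 0.991 for the other libraries. It was the highest of all 20 libraries for 16 of the 39 members and the lowest for 5. How often it was highest or lowest over all genes was not counted. Its median absolute log2 distance from the other si-Ctrl libraries was 0.24 for members and 0.42 for all tested genes. The shift was thus not particular to the members. Of the 14 glycolytic members, 10 were highest there: *Aldoa*, the main aldolase, had 118397 normalized counts in it and 78965 to 82092 in the other si-Ctrl libraries. Of the 5 members of the pyruvate dehydrogenase complex, 3 were lowest there: *Dlat*, its acetyltransferase, had 756 in it and 1019 to 1122 in the others. Counts of members that passed against si-Ctrl are therefore also given without this library.

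**Figure D1:**
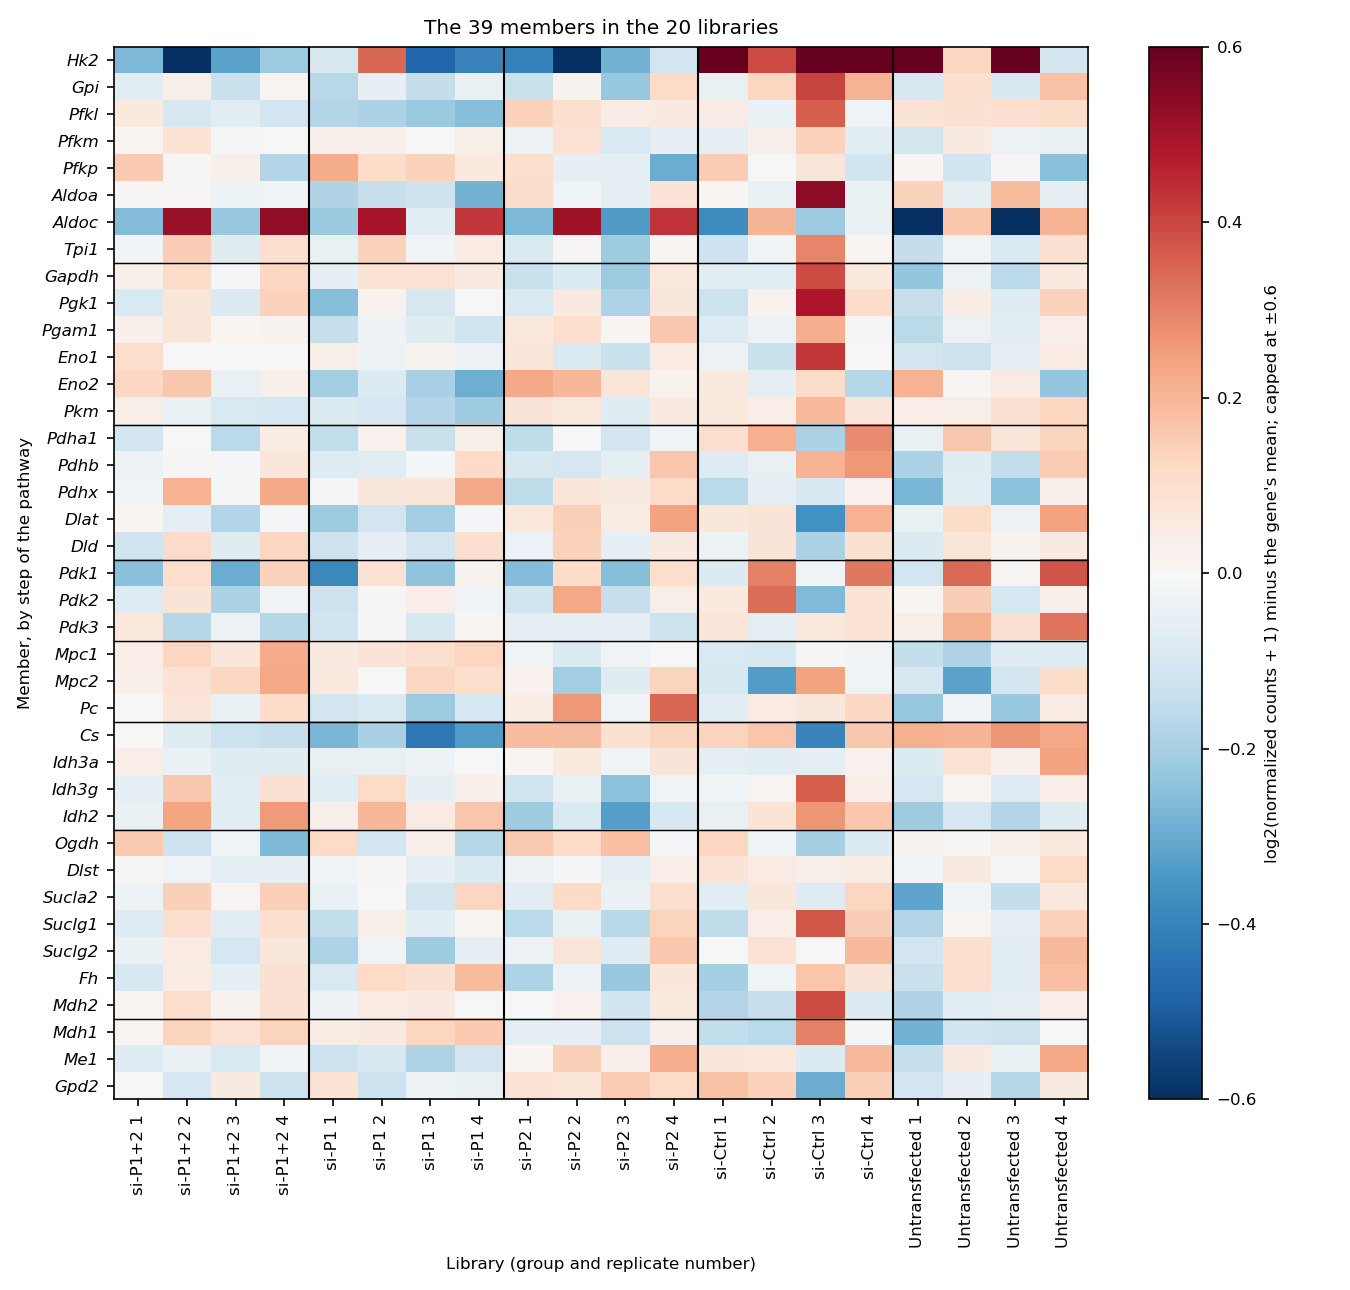
Rows are the 39 members by step of the pathway, columns the 20 libraries, and the colour is log2(normalized counts + 1) minus the mean of the gene, capped at 0.6 on either side. The glycolytic rows are mostly red in si-Ctrl replicate 3 (*Aldoa* at 118397), and the row of *Cs* is blue in the si-P1 libraries (5079 to 5973) and in si-Ctrl replicate 3 (5187).

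Between si-P1 and si-Ctrl cells, which asks what silencing of *Piezo1* changes, 3 of 39 members were lower and 0 higher. These were *Pfkl*, *Pkm* and *Cs*, 1 gene each in the first and second parts of glycolysis and at the entry of the cycle, with log2 fold changes of −0.30, −0.24 and −0.32. The split was 2 lower and 1 higher when libraries were scaled to equal totals, and 1 lower and 1 higher after quantile normalization, the higher gene being *Mpc1* in both. Genes passed at an adjusted p under 0.05 in limma, and of all genes tested 13.3% did, so the share of members was no higher. The median log2 fold change was −0.09 over the members and 0.02 over all genes, but over the members it was −0.06 without si-Ctrl replicate 3 and −0.04 against Untransfected cells. When si-Ctrl replicate 3 was left out, 7 members were lower and 3 higher, against 24.2% of all genes. With the Untransfected libraries in place of si-Ctrl, 4 members were lower and 2 higher, against 18.1%. In a fit of si-P1 and si-Ctrl alone, 0 members passed.

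Citrate synthase, encoded by *Cs* (ENSRNOG00000023520), makes citrate and opens the cycle. *Cs* had 6833, 6502, 6236 and 6204 normalized counts in si-P1+2 libraries and 5644, 5973, 5079 and 5409 in si-P1 libraries. It had 7760.2, 7771, 7279 and 7492 in si-P2 libraries, 7480.1, 7654, 5187 and 7628 in si-Ctrl libraries and 7919, 7854, 8208 and 8003 in Untransfected libraries. Leaving aside si-Ctrl replicate 3, which lay among the si-P1 values, si-P1 libraries were lowest, si-P1+2 libraries were above them, and the si-P2, si-Ctrl and Untransfected libraries were higher still, with no overlap between these 3 levels. The log2 fold change between si-P1 and si-Ctrl was −0.32 (adjusted p = 0.0244 in limma, standard error 0.09). Without si-Ctrl replicate 3 it was −0.46 (adjusted p = 3.17e-06), and against Untransfected cells −0.54 (adjusted p = 0.000466). The call for *Cs* was lost in 8 of 18 alternatives, with values of −0.32 to −0.27: under both other scalings, in the fit of these groups alone, and without si-Ctrl replicate 1, 2 or 4 or si-P1 replicate 3 or 4.

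In si-P1+2 cells *Cs* averaged 6444 ± 292 normalized counts, against 6987 ± 1203 in si-Ctrl cells (SD, n = 4 each), and did not pass (log2 fold change −0.10, adjusted p = 0.658, limma). Without si-Ctrl replicate 3 the value was −0.24 (adjusted p = 0.00362), and against Untransfected cells −0.31 (adjusted p = 0.0417). The call of *Cs* in doubly silenced cells thus depended on 1 control library. Between si-P1+2 and si-P1 cells the log2 fold change of *Cs* was 0.22, which did not pass (adjusted p = 0.723).

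The liver-type phosphofructokinase gene *Pfkl* (ENSRNOG00000001214) encodes an enzyme of the committed step of glycolysis. *Pfkl* had 15955, 15795, 15441 and 15119.7 normalized counts in si-P1 libraries, against 18657, 17541, 23131 and 17844 in si-Ctrl libraries. Every si-P1 library was below every si-Ctrl library, and also below the si-P1+2 (16668 to 18797), si-P2 (18593 to 19832) and Untransfected libraries (19097 to 19459). The log2 fold change of *Pfkl* was −0.30 (adjusted p = 0.00624 in limma, standard error 0.07), and −0.21 without si-Ctrl replicate 3 (adjusted p = 0.00205). The genes of the other phosphofructokinase subunits did not pass. *Pfkm* averaged 7300.1 ± 80.5 in si-P1 and 7251 ± 483 in si-Ctrl cells (SD, n = 4 each), and the 95% interval of its log2 fold change was −0.10 to 0.12. For *Pfkp* the averages were 11754 ± 557 in si-P1 and 10951 ± 859.5 in si-Ctrl cells (SD, n = 4 each), with an interval of −0.08 to 0.29.

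Pyruvate kinase, the last enzyme of glycolysis, is encoded by *Pkm* (ENSRNOG00000011329) and by *Pklr*. *Pkm* had 44569.8, 44093, 41950.1 and 40792 normalized counts in si-P1 libraries, against 49459, 48611, 54140.2 and 49752 in si-Ctrl libraries. The groups did not overlap, with a log2 fold change of −0.24 (adjusted p = 0.0093 in limma, standard error 0.06), or −0.20 without si-Ctrl replicate 3 (adjusted p = 0.00913). After quantile normalization *Pkm* did not pass (−0.17, adjusted p = 0.0987). In si-P1+2 libraries *Pkm* had 43980.3 to 48593, which overlapped with si-P1, and it did not pass against si-Ctrl (log2 fold change −0.14, adjusted p = 0.194, and −0.11 without si-Ctrl replicate 3).

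**Figure D2:**
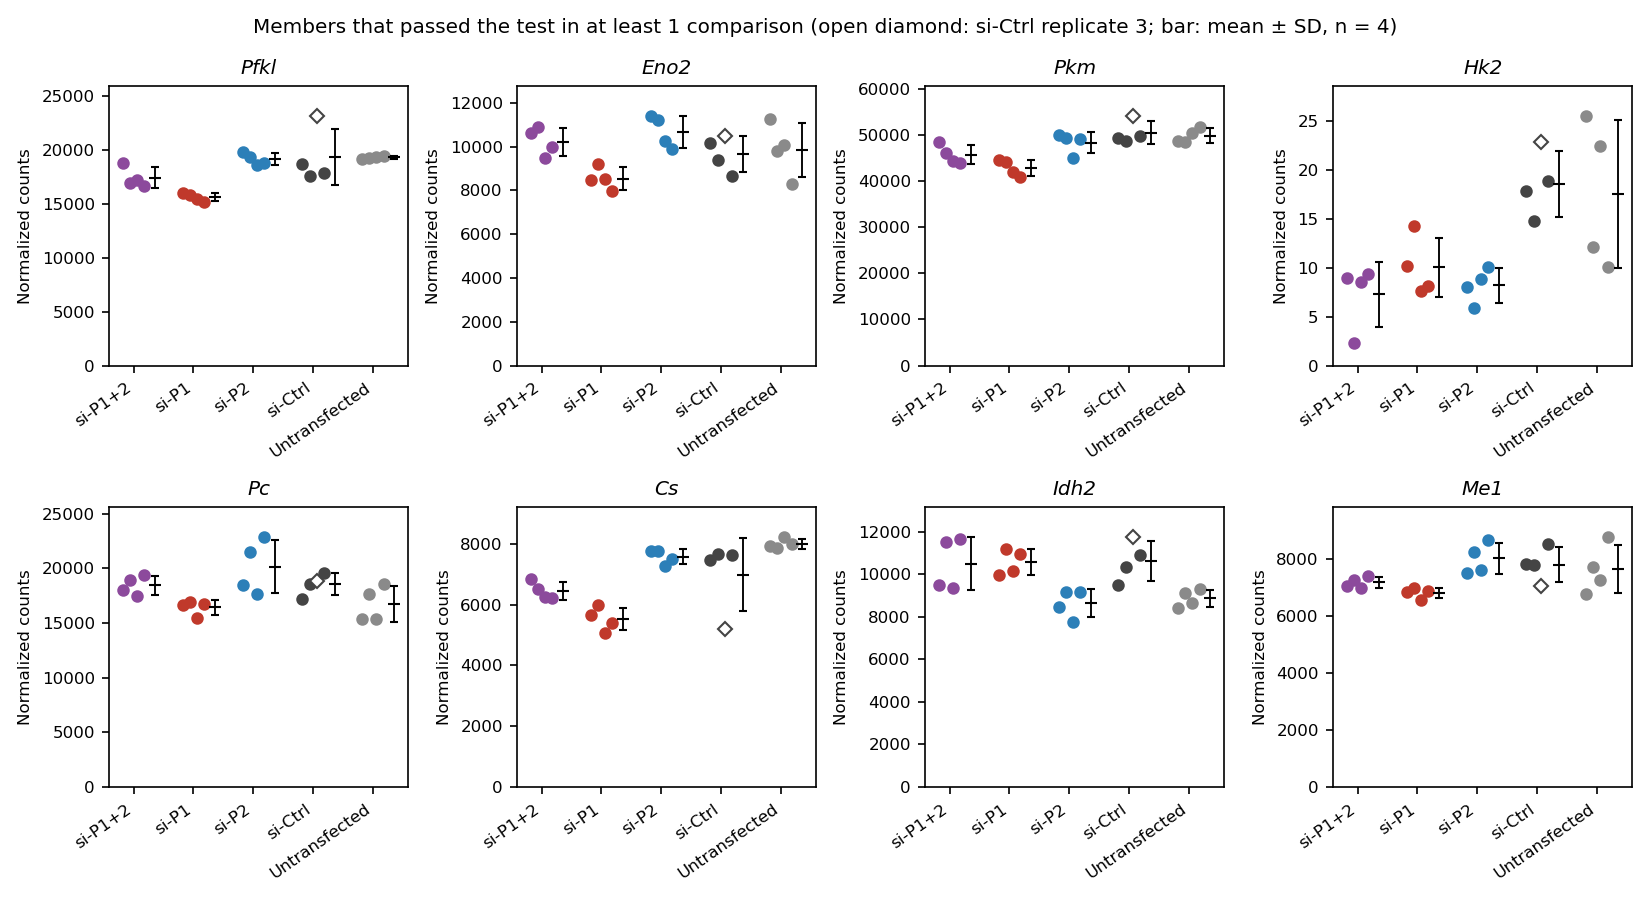
Each panel is 1 of the 8 members that passed in at least 1 comparison, with normalized counts from 0 on the y axis and the 5 groups on the x axis. Points are libraries, the open diamond is si-Ctrl replicate 3, and bars are means ± SD (n = 4). The si-P1 libraries of *Cs* (5079 to 5973) are below those of si-P2 (7279 to 7771), and si-Ctrl replicate 3 (5187) is level with si-P1.

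The other glycolytic members did not pass between si-P1 and si-Ctrl. In the second part, from triose phosphates to pyruvate, all 6 members had negative log2 fold changes with all libraries, −0.24 to −0.04. The sign turned without si-Ctrl replicate 3 for *Gapdh*, glyceraldehyde-3-phosphate dehydrogenase (0.07), and *Eno1*, an enolase (0.05), and against Untransfected cells it also turned for both (0.14 and 0.06). Under both other scalings the sign of *Gapdh* turned as well. *Aldoa* had −0.30 (adjusted p = 0.0673, limma) and −0.16 without si-Ctrl replicate 3. *Gpi*, glucose-6-phosphate isomerase, had −0.28 (adjusted p = 0.0572) and −0.20. *Gapdh*, *Pgk1*, *Aldoa*, *Eno1*, *Tpi1* and other glycolytic genes have near-identical copies in the genome that could share their reads, so these values are uncertain.

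Of the 5 members of the pyruvate dehydrogenase complex, 0 passed between si-P1 and si-Ctrl with all libraries, and 0 had an unadjusted p under 0.05 (limma). DESeq2 and edgeR also called 0 of these 5. *Pdha1*, the catalytic subunit, averaged 4631 ± 307 normalized counts in si-P1+2, 4637 ± 319.6 in si-P1 and 4577 ± 228 in si-P2, against 5205 ± 716 in si-Ctrl and 5100.0 ± 315 in Untransfected cells (SD, n = 4 each). Without si-Ctrl replicate 3, its lowest library at 4219, *Pdha1* passed in all 3 comparisons with si-Ctrl, with log2 fold changes of −0.26 in si-P1+2, −0.26 in si-P1 and −0.27 in si-P2. Against Untransfected cells it passed in none of them. *Dlat* also passed in si-P1 without si-Ctrl replicate 3, with a log2 fold change of −0.25 (adjusted p = 0.0204, limma), against −0.13 with all libraries. The kinases that switch the complex off, *Pdk1*, *Pdk2* and *Pdk3*, had log2 fold changes of −0.26, −0.08 and −0.09 in si-P1, and 0 of 3 passed. These values were −0.31, −0.18 and −0.09 without si-Ctrl replicate 3, and again 0 passed. Against Untransfected cells *Pdk3* passed (−0.22, adjusted p = 0.0308). *Pdk1* was ordered by the replicate number of the labels, an order noticed in the values. With this number as a block in the fit, *Pdk1* was lower in si-P1+2 (adjusted p = 0.00272, limma), si-P1 (adjusted p = 0.00017) and si-P2 (adjusted p = 0.00486). More of all genes passed with the block as well. In these 3 comparisons the 4 same-numbered pairs of libraries did not all correlate over 0.1. Over genes with a mean of at least 100, these correlations ran from −0.05 to 0.57 in si-P1+2 and from 0.09 to 0.57 in si-P1. In si-P2 they ran from −0.20 to 0.37. Whether the block fits these comparisons was thus not settled, and no conclusion on *Pdk1* is drawn from it.

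Pyruvate crosses the inner mitochondrial membrane through a carrier made of the products of *Mpc1* and *Mpc2*. *Mpc1* had 2776 to 3146 normalized counts in si-P1+2 and 2800.2 to 2951 in si-P1 libraries, against 2506 to 2709 in si-Ctrl and 2374 to 2553 in Untransfected libraries. Both groups with *Piezo1* siRNA were above both controls, but *Mpc1* missed the threshold against si-Ctrl, with log2 fold changes of 0.17 in si-P1+2 (adjusted p = 0.0616, limma) and 0.14 in si-P1 (adjusted p = 0.0661). It passed in 7 of 18 alternatives for si-P1+2 and in 6 of 18 for si-P1, among them both other scalings, the Untransfected controls and the omission of si-Ctrl replicate 3.

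Past citrate, *Idh3a* and *Idh3g*, subunits of the NAD-dependent isocitrate dehydrogenase, had log2 fold changes of 0.0064 and −0.09 in si-P1, and 0.00054 and −0.0032 without si-Ctrl replicate 3. From 2-oxoglutarate to oxaloacetate, 0 of 7 members passed, and their values ran from −0.19 for *Suclg2*, a subunit of succinyl-CoA ligase, to 0.07 for *Fh*, fumarase, or −0.21 and 0.13 for these genes without si-Ctrl replicate 3. Once si-Ctrl replicate 3 was omitted, the malate dehydrogenases *Mdh2* of the mitochondrion (0.15) and *Mdh1* of the cytosol (0.20) passed as higher in si-P1, and *Me1* (−0.24) and *Gpd2* (−0.18) as lower.

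Between si-P2 and si-Ctrl cells, 0 of 39 members passed in limma, 4 had an unadjusted p under 0.05, edgeR called 0 and DESeq2 called 1, *Idh2*. Of all genes 2.08% passed. *Idh2*, the mitochondrial NADP-dependent isocitrate dehydrogenase, averaged 8633 ± 668 normalized counts in si-P2 and 10616 ± 945 in si-Ctrl cells (SD, n = 4 each), with a log2 fold change of −0.30 (adjusted p = 0.0679, limma). Without si-Ctrl replicate 1, *Idh2* passed. Without si-Ctrl replicate 3, *Pdha1* passed instead, against 2.84% of all genes, and with Untransfected controls 0 members did, against 1.05%.

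Between si-P1+2 and si-Ctrl cells, 1 of 39 members passed, against 4.76% of all genes. It was *Hk2*, a hexokinase at the entry of glycolysis, which was expressed at a very low level: 2.32 to 9.31 normalized counts in si-P1+2 libraries, against 14.7 to 22.8 in si-Ctrl and 10.1 to 25.5 in Untransfected libraries. The log2 fold change of *Hk2* was −1.36 (95% interval −2.10 to −0.62, adjusted p = 0.0306, limma). The call was lost, with 0 members left, without si-Ctrl replicate 4 or without si-P1+2 replicate 2, which had 2.32. Without si-P1+2 replicate 1, 2 members passed. Without si-Ctrl replicate 3, 7 passed, against 13.6% of all genes: *Hk2*, *Pdha1*, *Cs* and *Gpd2* were lower and *Mpc1*, *Mdh2* and *Mdh1* higher. With Untransfected controls 4 passed, against 8.21%.

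Transfection itself, and the second siRNA added to the first, gave no call among the members. Between si-Ctrl and Untransfected cells, 0 of 39 passed in limma, edgeR and DESeq2, 2 had an unadjusted p under 0.05, and 0.0886% of all genes passed. Between si-P1+2 and si-P1 cells, 0 of 39 passed with the same 3 tools, 3 had an unadjusted p under 0.05, and 0.0443% of all genes passed.

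A comparison of si-P1 and si-P2 cells sets the 2 siRNA pools side by side without a control library in the difference. Of the 39 members, 7 passed, or 17.9%, near the 14.7% of all genes. *Pfkl*, *Eno2*, *Pkm*, *Pc*, *Cs* and *Me1* were lower in si-P1 and *Idh2* was higher. *Cs* had a log2 fold change of −0.46 (95% interval −0.65 to −0.26, adjusted p = 0.0023, limma) and *Pfkl* of −0.30 (adjusted p = 0.00663). Both passed in all 17 alternatives run. *Pkm* had 40792 to 44569.8 normalized counts in si-P1 and 44979.5 to 49939 in si-P2 libraries (−0.17, adjusted p = 0.0477), a call that was lost in 8 of 17.

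*Eno2*, the neuron-type enolase gene, had 8469, 9212, 8526 and 7959.6 normalized counts in si-P1 libraries, against 11402, 11204, 10243 and 9903 in si-P2 libraries. These groups did not overlap, with a log2 fold change of −0.32 (adjusted p = 0.0137, limma), while si-P1 overlapped with si-Ctrl (8660.2 to 10507). *Pc*, pyruvate carboxylase, refills the oxaloacetate of the cycle. *Pc* had 16633, 16878, 15447 and 16708 in si-P1 libraries, against 18509.6, 21510.5, 17681 and 22818 in si-P2 libraries (−0.29, adjusted p = 0.0206), again without overlap.

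*Me1*, the cytosolic malic enzyme, returns malate to pyruvate. It had 6835, 6983, 6559 and 6892 normalized counts in si-P1 libraries, against 7517, 8248, 7631 and 8685 in si-P2 libraries (log2 fold change −0.23, adjusted p = 0.0348, limma), and this call was lost in 9 of 17 alternatives. *Idh2* ran the other way, with 9969, 11205, 10126 and 10963 in si-P1 libraries, against 8442, 9170.1, 7769 and 9151 in si-P2 libraries (0.29, adjusted p = 0.0216). Neither gene overlapped between the groups. Untransfected libraries had 8431 to 9299 of *Idh2*, and si-Ctrl libraries 9481 to 11724.

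The number of members that passed between si-P1 and si-P2 fell to 3 when si-P1 replicate 4 was left out, and to 4 when replicate 2 or 3 of si-P1 or replicate 2 or 4 of si-P2 was. With the replicate number as a block it was 13, and more of all genes passed with the block too. Whether the numbers pair these libraries depended on the genes used for that check. Shares of all genes with a library left out are not given here, so the falls are not read as particular to the members.

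**Figure D3:**
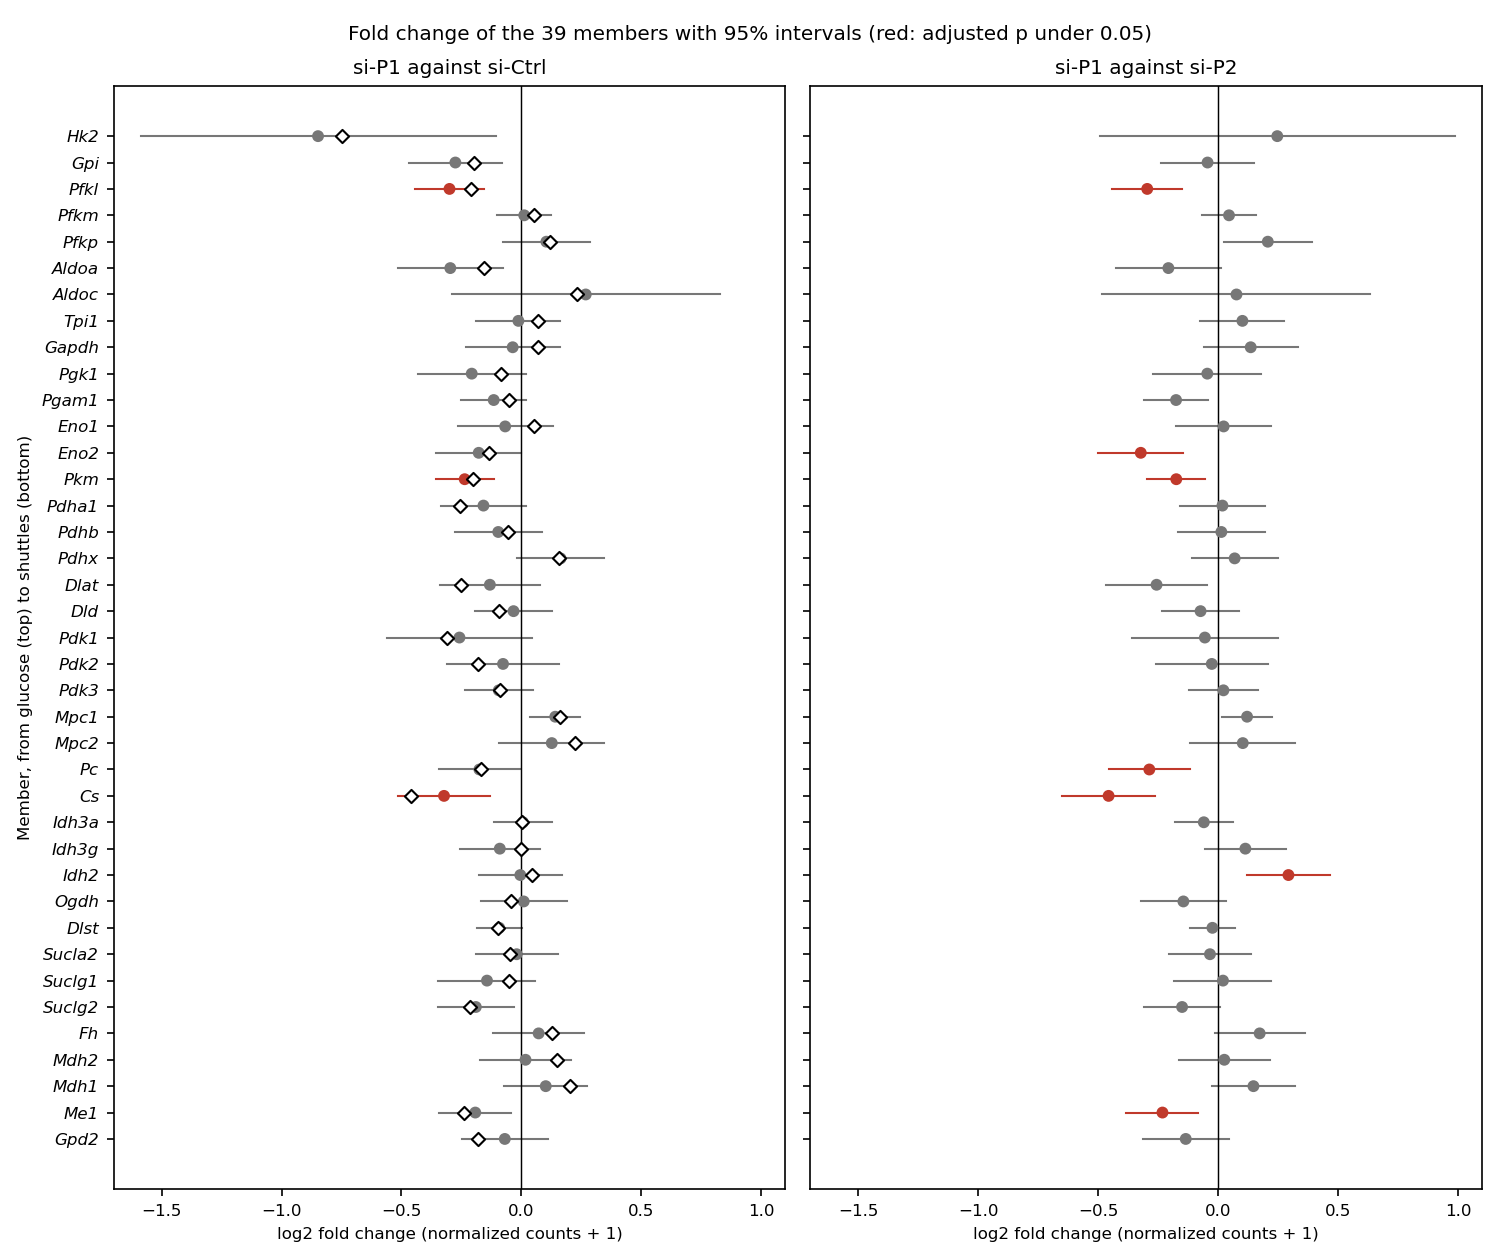
Rows are the 39 members from glucose to the shuttles, and the x axes are the log2 fold changes of si-P1 against si-Ctrl (left) and against si-P2 (right). Circles are estimates with 95% intervals, red at an adjusted p under 0.05, and open diamonds are estimates without si-Ctrl replicate 3. For *Cs* the circles are at −0.32 and −0.46 and the diamond at −0.46.

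Of 71 other genes of glucose, pyruvate and citrate metabolism, 59 were tested. Between si-P1 and si-Ctrl, 8 were higher and 8 lower, or 27.1% where 13.3% of all genes passed, with a median log2 fold change of −0.02. In a fit of these groups alone 3 passed, and fewer of all genes did too. Without si-P1 replicate 3, 11 passed. The list was chosen with earlier results of these data known, so its share is a description only. Passing genes numbered 4 in si-P1+2 and 2 in si-P2 against si-Ctrl, where 4.76% and 2.08% of all genes passed. Between si-Ctrl and Untransfected cells 1 passed, against 0.0886% of all genes. Between si-P1+2 and si-P1 cells 0 passed, against 0.0443%, and between si-P1 and si-P2 cells 16 passed, against 14.7%. Without si-Ctrl replicate 3, passing genes numbered 13 in si-P1+2, 26 in si-P1 and 4 in si-P2, where 13.6%, 24.2% and 2.84% of all genes passed.

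Some of these genes share an enzyme or a step with a member. *Pklr*, the liver-type pyruvate kinase, had 5076, 4835, 4776 and 4913 normalized counts in si-P1 libraries, against 6341, 6052, 6833 and 6776 in si-Ctrl libraries (log2 fold change −0.41, adjusted p = 0.0022, limma). Against Untransfected cells *Pklr* did not pass (−0.19). *Pdp1*, a phosphatase that switches the pyruvate dehydrogenase complex on, averaged 756 ± 18.2 normalized counts in si-P1 and 573 ± 73 in si-Ctrl cells (SD, n = 4 each). The log2 fold change of *Pdp1* was 0.41 (adjusted p = 0.00144, limma), or 0.33 without si-Ctrl replicate 3 (adjusted p = 0.000961). Its call was lost in the fit of these groups alone.

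*Gpd1*, the cytosolic partner of *Gpd2* in the glycerol phosphate shuttle, averaged 4695 ± 538 normalized counts in si-P1 cells, against 8153 ± 1194 in si-Ctrl and 5306 ± 1378 in Untransfected cells (SD, n = 4 each). Its log2 fold change from si-Ctrl was −0.79 (adjusted p = 0.00274, limma), but from Untransfected cells −0.15, which did not pass. *Idh1*, the cytosolic counterpart of *Idh2*, was higher in si-P1 (0.34, adjusted p = 0.0349), and *Me3*, a mitochondrial malic enzyme, was lower (−0.38, adjusted p = 0.0461). The call for *Idh1* was lost without si-Ctrl replicate 1 or 3 or si-P1 replicate 2, 3 or 4 and in the fit of these groups alone. *Me3* passed in 9 of 18 alternatives. Its call was lost with equal totals, without the filter on low values, without the variance trend, in the fit of these groups alone, and without si-Ctrl replicate 2 or 4 or si-P1 replicate 1, 3 or 4. *Hk1* is listed at 0 in all libraries.

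*Ldhb*, a lactate dehydrogenase subunit, had 887, 896, 1209 and 1176 normalized counts in si-P1 libraries and 333, 348, 359.6 and 372 in si-P2 libraries. It had 572, 621, 957 and 659 in si-Ctrl and 302, 311, 332 and 383 in Untransfected libraries. Thus si-P1 overlapped with si-Ctrl through replicate 3 alone, and si-P2 was level with Untransfected cells. The log2 fold change of *Ldhb* was 0.58 in si-P1 (adjusted p = 0.0126, limma) and −0.96 in si-P2 against si-Ctrl (adjusted p = 0.00209). It was 1.05 in si-Ctrl against Untransfected (adjusted p = 0.00577) and 1.54 in si-P1 against si-P2 (adjusted p = 1.74e-06). Against Untransfected cells the sign in si-P2 turned, to 0.09, and did not pass, and the si-P1 call was lost without si-P1 replicate 3. In fits of the groups compared alone, the calls of *Ldhb* in si-P1 and si-P2 against si-Ctrl were lost. So was its call in si-Ctrl against Untransfected, while that in si-P1 against si-P2 held.

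*Slc16a7*, a carrier of lactate and pyruvate, averaged 1038 ± 82.3 normalized counts in si-P1+2 and 1092 ± 28.4 in si-P1, against 727 ± 205 in si-Ctrl cells (SD, n = 4 each). Its log2 fold changes were 0.56 (adjusted p = 0.0297, limma) in si-P1+2 and 0.64 (adjusted p = 0.00579) in si-P1, and without si-Ctrl replicate 3 they were 0.33 and 0.41, both of which passed. *Dhtkd1*, a relative of *Ogdh*, averaged 254 ± 18 in si-P1+2 and 283 ± 22.9 in si-P1, against 169.6 ± 40.2 in si-Ctrl cells (0.61 and 0.76). In si-P1+2 the calls of both genes were lost without si-Ctrl replicate 4 or si-P1+2 replicate 2 or 4, and that of *Slc16a7* also without si-P1+2 replicate 3 and against Untransfected cells (0.36, adjusted p = 0.152, limma). Both were also lost in the fit of si-P1+2 and si-Ctrl alone. In si-P1 the calls of both genes were lost in the fit of si-P1 and si-Ctrl alone.

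*Glud1*, glutamate dehydrogenase, feeds 2-oxoglutarate into the cycle. It averaged 15894 ± 811 normalized counts in si-P1+2, 16481 ± 1012 in si-P1 and 13004 ± 401 in si-P2, against 19330.3 ± 632 in si-Ctrl and 17734 ± 299 in Untransfected cells (SD, n = 4 each). *Glud1* was lower in si-P2 in all 18 alternatives (log2 fold change −0.57, adjusted p = 2.26e-05, limma). Its calls in si-P1+2 (−0.28) and si-P1 (−0.23) were lost against Untransfected cells and in fits of the groups compared alone.

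Of 8 tested factors and targets of the carbohydrate response element, through which glucose acts on transcription, 3 were lower in si-P1 than in si-Ctrl and 0 higher, where 13.3% of all genes passed. They were *Pklr*, *Gpd1* and *Txnip*, an inhibitor of thioredoxin, and of these *Txnip* alone also passed against Untransfected cells. *Txnip* averaged 5158 ± 902 normalized counts in si-P1 and 7518 ± 756 in si-Ctrl cells (SD, n = 4 each), and passed in all 18 alternatives (log2 fold change −0.55, adjusted p = 0.00442, limma). Between si-P1 and si-P2, 5 of the 8 were lower, where 14.7% of all genes passed, or 4 under each of the other scalings. This count fell to 2 when si-P1 replicate 2 or 3 was left out. Against si-Ctrl, 1 gene passed as higher in si-P1 after quantile normalization or without si-Ctrl replicate 1. These 8 genes were listed with earlier results of these data known.

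**Figure D4:**
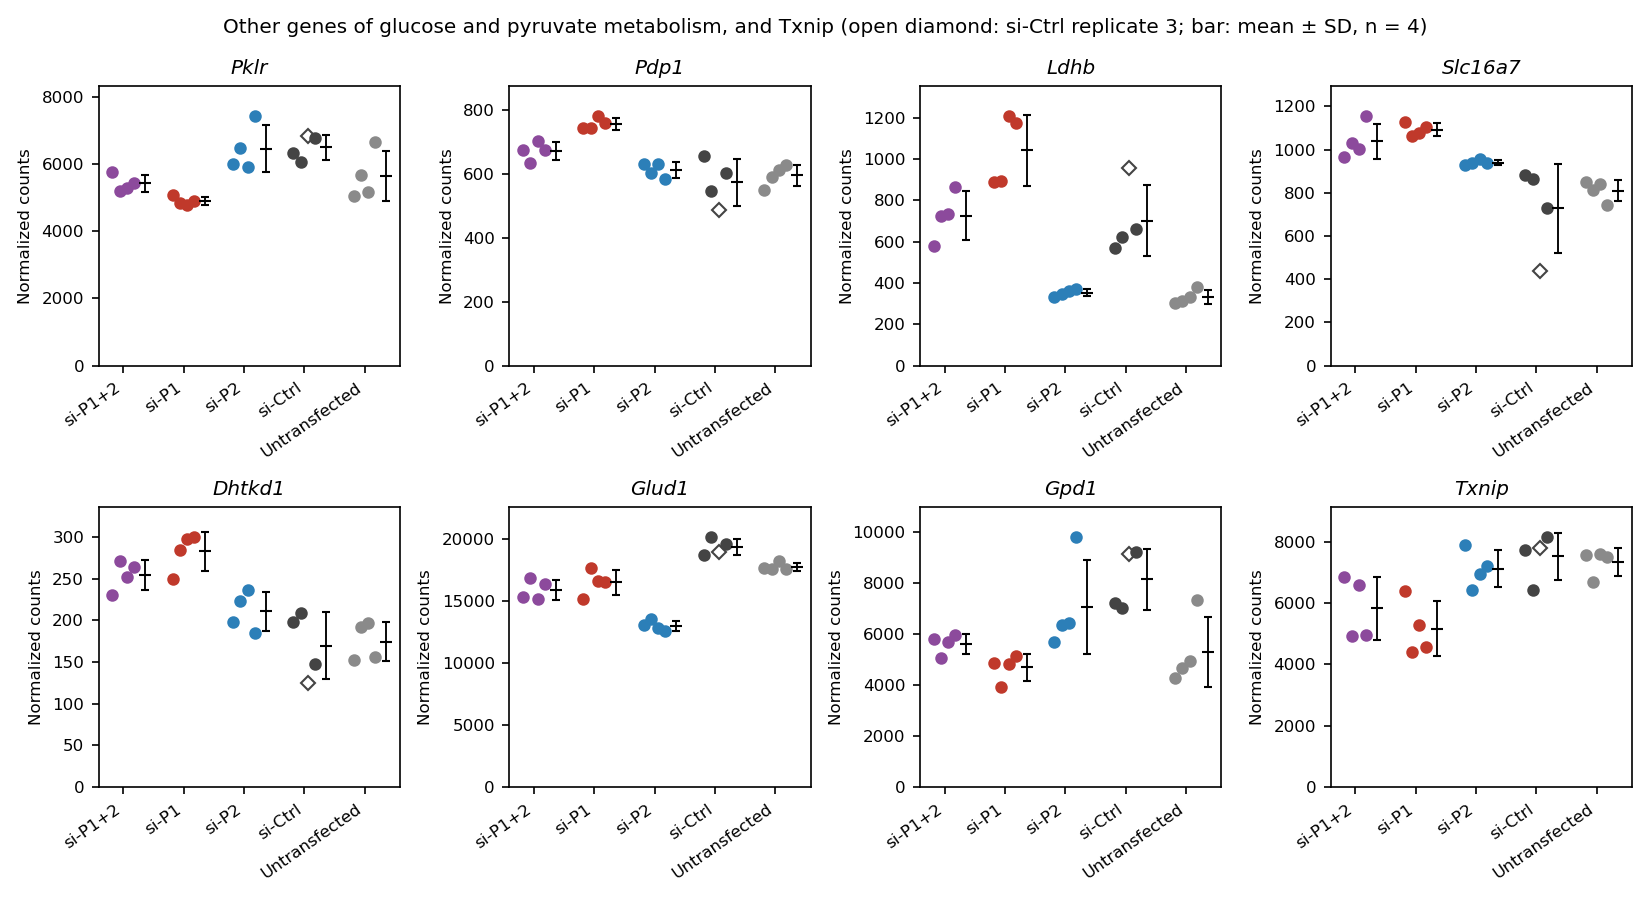
Each panel is 1 of 8 genes outside the list of members, with normalized counts from 0 on the y axis and the 5 groups on the x axis. Points are libraries, the open diamond is si-Ctrl replicate 3, and bars are means ± SD (n = 4). For *Ldhb*, si-P1 (887 to 1209) is highest, and si-P2 (333 to 372) is level with Untransfected (302 to 383).

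Members also varied with the replicate number of the labels, an order that was noticed in the values and not tested. In all 5 groups, replicates 2 and 4 were above replicates 1 and 3 for 6 of 39 members (*Aldoc*, *Pdha1*, *Dld*, *Pdk1*, *Sucla2* and *Suclg2*), and for 0 were they below in all 5. Of all 15802 genes tested, 604 (3.82%) were above in all 5, and 544 were below in all 5. *Aldoc*, a brain-type aldolase, had 803 to 1197 normalized counts in replicates 2 and 4 and 485 to 790.3 in replicates 1 and 3. For *Pdk1* the ranges were 2197 to 2812 and 1660.1 to 2178. No source says what a replicate number stands for.

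**Figure D5:**
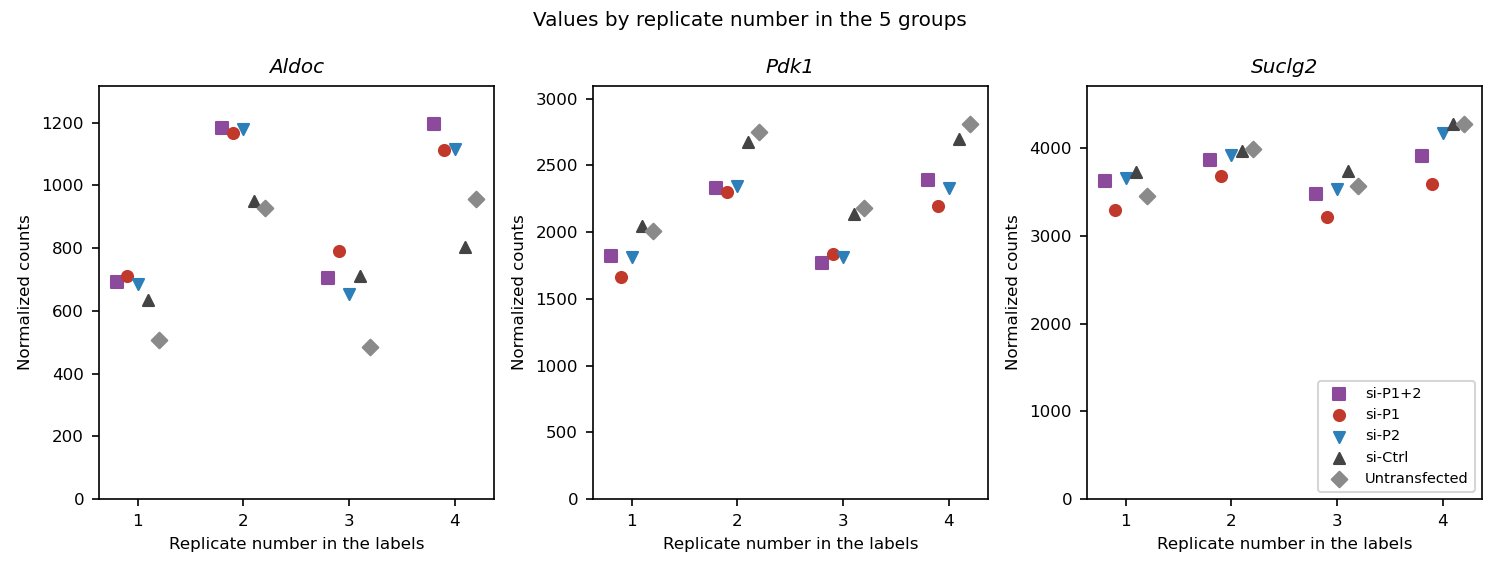
The x axis is the replicate number and the y axis normalized counts from 0 for *Aldoc*, *Pdk1* and *Suclg2*, with a symbol for each of the 5 groups. In every group replicates 2 and 4 lie above replicates 1 and 3, for *Aldoc* at 803 to 1197 and 485 to 790.3.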

How the data were processed

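RNA-seq of 20 libraries was analysed (5 groups of 4, by the labels). Per the labels and the submitters' processing notes, the authors made TruSeq Stranded mRNA libraries and named FastQC 0.11.8, MultiQC 1.7, Salmon 0.14.0, DESeq2 1.25.10 and Rnor_6.0. How transcripts were summed to genes is not given in the sources used here. The signal values deposited by the authors are read counts divided by a DESeq2 size factor per library. After the worth of 1 read was found in each library, 100% of the values were whole reads (within 0.001).

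Genes above 0 in 50% or more of the libraries were tested with limma 3.58.1 (R 4.3.3) on log2(value + 1), which understates changes of low genes, with a mean per group, all 20 libraries in the fit (15 residual degrees of freedom), a variance trend, two-sided tests and Benjamini-Hochberg adjustment over 15802 genes. The 3 comparisons with si-Ctrl share its libraries. Alternatives were edgeR 4.0.16 and DESeq2 1.42.0 on the recovered reads, a pseudocount of 0.5, no filter, equal totals, quantile normalization, no trend, only the groups compared, a replicate block, Untransfected controls and each library left out. Scripts were tested on simulated data. Values in each library are given for members that passed in any of the 6 comparisons with a mean of at least 100, and other listed genes are named at an absolute log2 fold change of at least 0.5 against si-Ctrl or for sharing an enzyme or step with a member. Members and lists were chosen with earlier results of these data known. Promoters are from RefSeq (GRCr8), read with Python 3.11.15.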

Additional observations from a re-analysis of the deposited data

Results flagged for a closer look

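In a group of 4 libraries, 1 library was far from the other 3 by Dixon's test for 12 of 195 groups of member values, 5 of them in si-Ctrl replicate 3, and chance alone gives about 1 in 20. In si-Ctrl replicate 3, *Aldoa* (118397 normalized counts), *Idh3g* (6381) and *Mdh2* (15574) were high and *Cs* (5187) and *Gpd2* (2133) low. In si-P1+2 libraries, *Hk2* was low in replicate 2 (2.32) and *Eno1* high in replicate 1 (113667). In si-P2 libraries, *Pkm* was low in replicate 3 (44979.5), and in replicate 4 *Pdhb* was high (3125) and *Pdk3* low (1165). In other si-Ctrl libraries, *Pdk3* was low in replicate 2 (1229) and *Idh3a* high in replicate 4 (2748).

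The effects of si-P1 and si-P2 differed by a direct test (limma, adjusted p under 0.05) for 7 members, by a log2 difference of −0.30 for *Pfkl*, −0.32 for *Eno2*, −0.17 for *Pkm*, −0.29 for *Pc*, −0.46 for *Cs*, −0.23 for *Me1* and 0.29 for *Idh2*.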

How the results depend on the processing

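Of 11 calls among members, 2 held in every alternative run (*Pfkl* and *Cs* between si-P1 and si-P2) and 0 reversed. For si-P1 against si-Ctrl, 3 members passed in the main setting (0 higher and 3 lower), 3 with equal totals (1 and 2), 2 with quantile normalization (1 and 1, with *Pkm* and *Cs* lost), 6 with DESeq2, 0 with only these groups in the fit, 12 with the replicate block, 6 with Untransfected controls and 2 to 10 with a library left out. For si-P2 against si-Ctrl, 0 passed, but 1 with DESeq2, 2 with the replicate block and 0 to 1 with a library left out. For si-P1+2 against si-Ctrl, 1 passed, but 2 with equal totals, 2 with quantile normalization, 2 with DESeq2, 0 with only these groups, 4 with the replicate block, 4 with Untransfected controls and 0 to 7 with a library left out. For si-P1 against si-P2, 7 passed, but 8 with DESeq2, 10 with only these groups and 13 with the replicate block. The count was 6 without the filter or without the variance trend, and 3 to 6 with a library left out. The causes were not tested. For si-Ctrl against Untransfected and si-P1+2 against si-P1, 0 passed in every alternative run, the block included.

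Over all genes, 2109 passed for si-P1 against si-Ctrl, 2027 with edgeR, 2462 with DESeq2, 593 with only these groups and 3400 with the replicate block. In the same order of settings, the counts were 328, 327, 820, 5 and 1367 for si-P2 against si-Ctrl, 752, 758, 1200, 69 and 1788 for si-P1+2 against si-Ctrl, and 2325, 2288, 2827, 4072 and 3724 for si-P1 against si-P2. They were 14, 17, 103, 0 and 207 for si-Ctrl against Untransfected and 7, 7, 61, 2 and 93 for si-P1+2 against si-P1.

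Same-numbered libraries were checked for pairing on 2 gene sets after the block's calls had been seen. All 4 pairs correlated over 0.1 in 1 of 6 comparisons over all 15802 genes and in 3 of 6 over the 10968 genes with a mean of at least 100. Only si-P1+2 against si-P1 did so in both. The other scalings shifted the median gene by at most 0.04 on the log2 scale. *Hk2*, at 2.32 to 25.5 normalized counts, rests on few reads.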

Other observations

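Of 20 tested targets of hypoxia-inducible factors outside the pathway, 2 were lower in each silenced group than in si-Ctrl and 0 higher, or 10% of the list in each comparison, where 4.76% of all genes passed in si-P1+2, 13.3% in si-P1 and 2.08% in si-P2. When si-Ctrl replicate 3 was left out, 3 passed in si-P1+2, 7 in si-P1 and 1 in si-P2, against 13.6%, 24.2% and 2.84% of all genes. Of the 7 in si-P1, 6 were lower and 1, *Adm*, was higher (log2 fold change 0.42, adjusted p = 0.0153, limma). Against Untransfected cells *Adm* was also higher in si-P1 (0.60, adjusted p = 0.00143, limma). The genes of this list are named after their values were seen. *Egln3*, a prolyl hydroxylase that marks these factors for degradation, was lower in si-P1+2 (log2 fold change −0.47, adjusted p = 0.00384, limma), in si-P1 (−0.46, adjusted p = 0.00156) and in si-P2 (−0.50, adjusted p = 0.0057). The si-Ctrl libraries are shared by these comparisons. *Mxi1*, a repressor related to MAD proteins, was lower in si-P1+2 (−0.34, adjusted p = 0.0114) and si-P1 (−0.43, adjusted p = 0.000668), and *Adm*, adrenomedullin, in si-P2 (−0.46, adjusted p = 0.0474). The calls for *Egln3* and *Mxi1* held without si-Ctrl replicate 3, but that for *Adm* in si-P2 did not (−0.40, adjusted p = 0.0841, limma). In fits of the groups compared alone, the calls of *Egln3* in si-P1+2 and si-P2 and of *Mxi1* in si-P1+2 were lost. *Adm* passed in si-P2 in 6 of 18 alternatives. Between si-P1 and si-P2, *Adm* was higher in si-P1 by 0.82 (adjusted p = 0.000117).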
